A study of Rattus norvegicus with 49 samples.

Results

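Genes of the cornified envelope and of squamous differentiation were followed through the rat thyroid after 131I, a radioactive isotope of iodine that the gland takes up. The 10 genes were Cnfn, Sprr1a, Sprr3, Ivl, Lypd3, Calml3, Bnipl, Sbsn, Krtdap and Dsg3, out of 15154 genes that could be named on the array. They were chosen by name and found through the RefSeq accession that the array design gives for each probe. Of the 10 genes, 8 had a probe, exactly 1 each, and no probe was matched to Sprr1a or Krtdap, which are therefore described by position and promoter alone.

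Thyroid tissue from single male Sprague Dawley rats was measured on 49 one-colour Agilent arrays, of which 14 came from untreated rats and 35 from rats injected intravenously with 131I. Young rats, 5 weeks old at injection, were given an activity of 0.5 kBq, 5 kBq, 50 kBq or 500 kBq and examined 9 months later, at 10 months of age, and further young rats given 50 kBq were examined after 3 and 6 months, at 4 and 7 months of age. Adult rats were injected with 50 kBq at 17 weeks of age and examined after 3, 6 and 9 months, at 7, 10 and 13 months of age. Untreated controls were examined at 4, 7, 10 and 13 months of age. Each of the 13 groups held 4 arrays, except that 3 arrays each came from the group given 5 kBq, the 7-month controls and the 13-month controls. The 10-month controls served 5 comparisons and the 7-month controls served 2, so these comparisons share their control rats.

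A stratified squamous epithelium is renewed from a basal layer, and its cells flatten, harden and are shed as they move outward. Under the plasma membrane of the outermost cells, precursor proteins such as involucrin and the small proline-rich proteins are crosslinked by transglutaminases into an insoluble shell, the cornified envelope. Desmosomes, whose adhesive proteins are cadherins such as desmoglein 3, hold the cells together. Thyroid follicles are lined by a simple epithelium that secretes hormone and does not cornify.

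All levels are given as log2 of the background-subtracted signal minus the 75th percentile of the same array, so 0 is the 75th percentile of that array. A probe was called well above background where the scanner software marked it so. Levels of different genes come from different probes, and mean signal served only to choose which genes of a list are named. A lower level in bulk tissue cannot tell fewer cells of a type from less RNA per cell.

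The arrays measured between 69.2 and 82.5% of probes well above background, apart from replicate 2 of the young rats 3 months after 50 kBq, with 43.1% and a 75th percentile of 61.0 against 783 to 4172 on the others. On 2 further arrays the main marker of the labelled tissue was low. Thyroglobulin, Tg, the protein store of thyroid hormone, had a level of 0.14 in replicate 3 of the young rats 3 months after 50 kBq and of -0.69 in replicate 2 of the 7-month controls, against 6.41 or more on the other arrays. Many of the values that lean on these 3 arrays are given without them as well. Replicates were compared pairwise. The 2 closest pairs were replicates 1 and 2 of the 13-month controls and of the adult rats after 6 months. The median absolute deviation of their differences, scaled to an SD, was 0.128 and 0.142 log2 units. It was taken over 3401 probes of 2 spots with a mean level above the 75th percentile. The spread between spots of a probe predicted 0.0389 and 0.0408. Spots of 1 array do not carry the error of labelling and hybridisation, so this comparison cannot tell separate rats from repeat arrays of 1 rat. The arrays were counted separately because the labels list them so.

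Most of the squamous genes were high together on a minority of single arrays, among controls and among exposed rats. An array was taken as bright for a gene where its probe was well above background and more than 2 log2 units over the median of the gene on all 49 arrays. By this measure 12 arrays were bright for at least 4 of the 8 genes, 5 of the 14 control arrays and 7 of the 35 exposed arrays. On 33 arrays none of the 8 genes was bright, and on the other 4 between 1 and 3 were. The bright arrays came from the 4-month and 10-month controls, the young rats 6 and 9 months after 50 kBq and 9 months after 0.5 kBq, and the adult rats 3 and 6 months after injection. No array bright for at least 4 genes came from the 7-month or 13-month controls, the young rats 3 months after 50 kBq or 9 months after 5 and 500 kBq, or the adult rats after 9 months. They were spread over all 3 scan dates, with 6 of 24, 2 of 14 and 4 of 11 arrays.

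**Figure D1:**
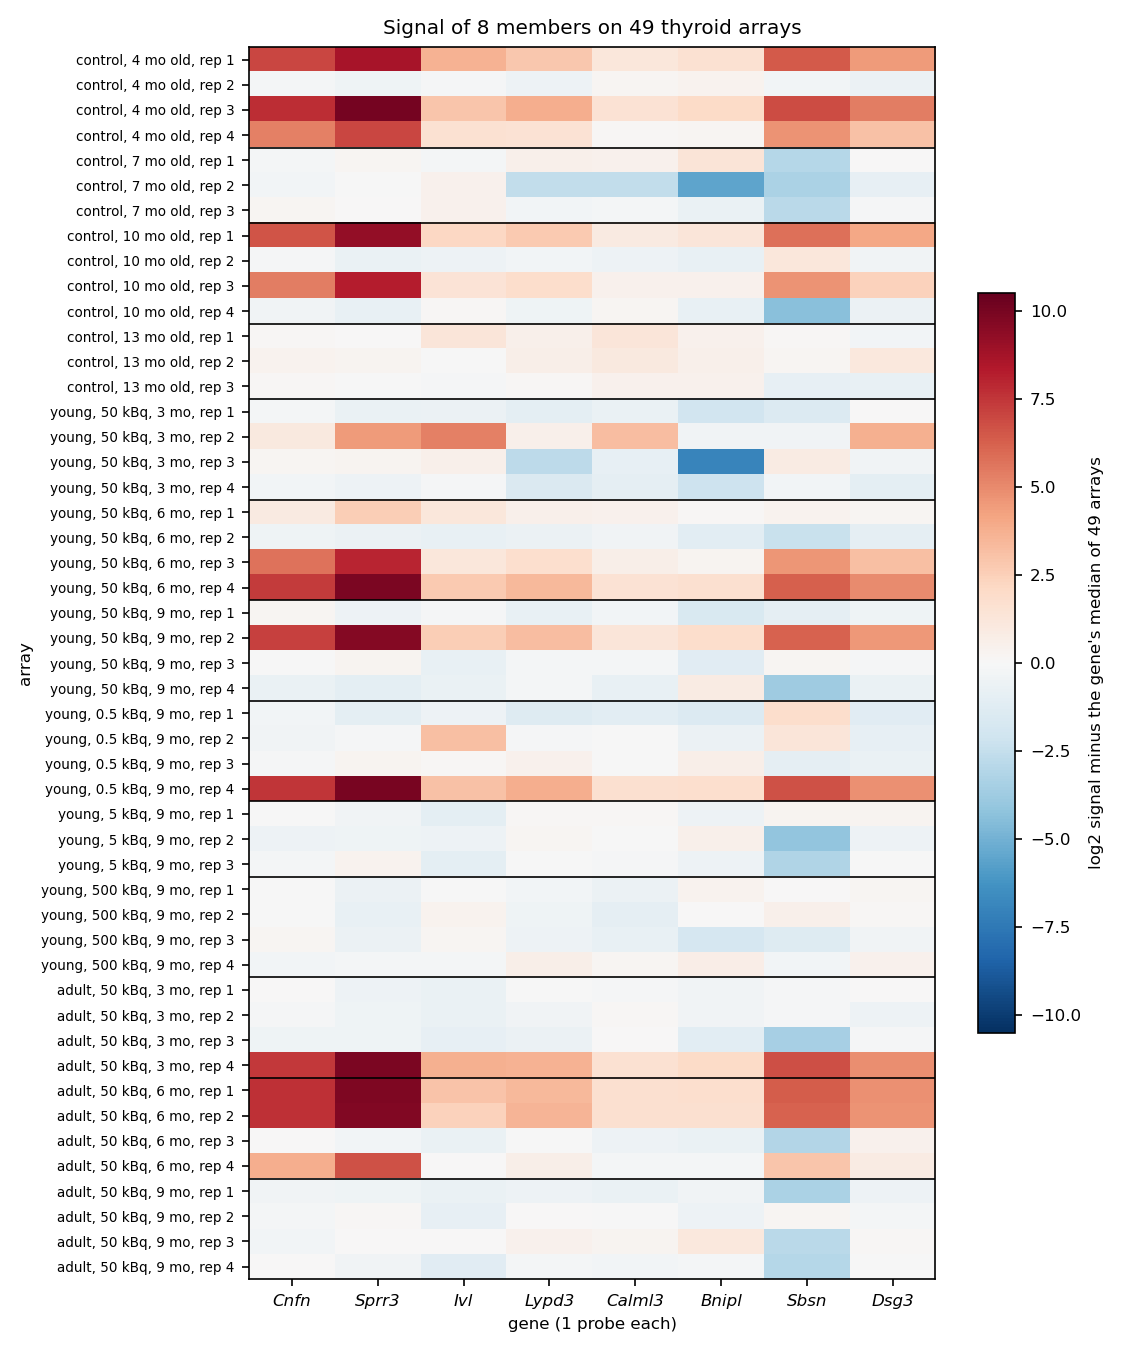
Level of the 8 genes with a probe (horizontal axis) on each of the 49 arrays (vertical axis, ordered by group, with lines between groups), coloured by the log2 difference from the median of the gene over all arrays. Arrays on which most genes are high stand out in controls and exposed groups, 12 of them with at least 4 genes bright.

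Cnfn encodes cornifelin, a protein of the cornified envelope. In the controls its levels were 4.43, -2.78, 5.20 and 2.69 at 4 months, -2.75, -2.83 and -2.38 at 7 months, 4.01, -2.66, 2.76 and -2.96 at 10 months, and -2.48, -2.22 and -2.42 at 13 months. In the young rats given 50 kBq they were -2.75, -1.54, -2.39 and -2.88 after 3 months, -1.67, -3.06, 3.13 and 4.73 after 6 months, and -2.40, 4.61, -2.62 and -3.25 after 9 months. Cnfn was thus high on 3 of 4 control arrays at 4 months and on 2 of 4 at 10 months, as it was on 2 of 4 young arrays after 6 months. The other activities at 9 months gave -2.88, -2.94, -2.70 and 4.90 after 0.5 kBq, -2.63, -3.14 and -2.77 after 5 kBq, and -2.63, -2.60, -2.39 and -2.85 after 500 kBq. The adult rats gave -2.58, -2.69, -3.03 and 4.81 after 3 months, 5.05, 5.08, -2.57 and 1.19 after 6 months, and -2.96, -2.80, -2.88 and -2.53 after 9 months. No Cnfn level lay between -1.54 and 1.19, so 13 arrays stood above a gap and 36 below it, and every group with a high array also had a low one.

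Sprr3 encodes a small proline-rich protein that is built into the envelope of internal squamous epithelia. In the controls its levels were 2.96, -6.16, 4.33 and 1.28 at 4 months, -5.47, -5.71 and -5.71 at 7 months, 3.52, -6.41, 2.57 and -6.46 at 10 months, and -5.69, -5.39 and -5.77 at 13 months. The young rats given 50 kBq had -6.42, -1.27, -5.42 and -6.20 after 3 months, -3.10, -6.30, 2.30 and 4.14 after 6 months, and -6.24, 3.95, -5.45 and -6.74 after 9 months. The arrays that were high for Sprr3 were the 13 that were high for Cnfn, and 2 more lay in between. These 2 were the dim array after 3 months and replicate 1 after 6 months. The other activities gave -6.71, -5.86, -5.45 and 4.27 after 0.5 kBq, -6.05, -6.15 and -5.33 after 5 kBq, and -6.34, -6.51, -6.36 and -5.92 after 500 kBq. The adult rats gave -6.21, -6.17, -6.18 and 4.18 after 3 months, 4.10, 4.02, -5.97 and 1.01 after 6 months, and -6.15, -5.59, -5.70 and -6.09 after 9 months. Its range over the 49 arrays was 11.1 log2 units, and Pearson's r with Cnfn was 0.99 over the 49 arrays, which share their normalization.

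Ivl encodes involucrin, an early scaffold of the envelope, and was well above background on 14 of the 49 arrays. Its levels ran from -9.86 to -3.39, and 9 arrays were bright, 2 of them controls. The highest level, -3.39, was on the dim array of the young rats after 3 months, where the probe was not well above background. Without that array the highest was -4.92, in replicate 4 of the adult rats after 3 months. In 5 groups, the controls of 7 months, the young rats 3 months after 50 kBq and 9 months after 5 and 500 kBq, and the adult rats after 9 months, no array measured Ivl well above background, and no fold could be bounded above 1 for any comparison of these groups.

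Sbsn encodes suprabasin, a protein secreted by the layers above the basal cells. Its levels in the controls were 2.82, -3.92, 3.23 and 1.04 at 4 months, -6.64, -6.96 and -6.46 at 7 months, 2.13, -2.48, 1.09 and -8.06 at 10 months, and -3.51, -3.41 and -4.53 at 13 months. The young rats given 50 kBq had -5.06, -4.04, -2.78 and -3.90 after 3 months, -3.25, -5.98, 0.97 and 2.67 after 6 months, and -4.58, 2.53, -3.46 and -7.38 after 9 months. Sbsn differed from Cnfn in that its low arrays did not share one level. At 0.5, 5 and 500 kBq its levels were -1.80, -2.33, -4.61 and 3.08, then -3.35, -7.77 and -6.79, and then -3.64, -3.12, -5.03 and -3.94. The adult rats gave -3.80, -3.77, -7.09 and 3.14 after 3 months, 2.68, 2.59, -6.74 and -0.73 after 6 months, and -6.99, -3.48, -6.46 and -6.66 after 9 months. The 13 arrays that were high for Cnfn ranged from -0.73 to 3.23 for Sbsn and the other 36 from -8.06 to -1.80.

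Lypd3 encodes an anchored membrane protein of the upper squamous layers, and it was well above background on all 49 arrays. In the controls its levels were 3.72, 0.39, 4.67 and 2.43 at 4 months, 1.39, -1.72 and 0.60 at 7 months, 3.65, 0.59, 2.75 and 0.46 at 10 months, and 1.40, 1.49 and 0.98 at 13 months. After 50 kBq in young rats they were -0.17, 1.42, -1.84 and -0.66 after 3 months, 1.45, 0.25, 2.65 and 4.33 after 6 months, and 0.10, 4.14, 0.72 and 0.70 after 9 months. Its 2 lowest levels, -1.84 and -1.72, were on the 2 arrays that were low for Tg. At 0.5, 5 and 500 kBq its levels were -0.50, 0.78, 1.33 and 4.69, then 1.03, 1.07 and 0.84, and then 0.61, 0.48, 0.33 and 1.496. The adult rats gave 0.83, 0.56, 0.26 and 4.58 after 3 months, 4.26, 4.49, 0.85 and 1.52 after 6 months, and 0.35, 0.89, 1.32 and 0.72 after 9 months. The 13 arrays high for Cnfn ranged from 1.52 to 4.69 for Lypd3 and the other 36 from -1.84 to 1.496, so the ranges met but did not overlap.

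Dsg3 encodes desmoglein 3, the desmosomal cadherin of the lower layers of stratified epithelia. It was well above background on 17 arrays and bright on 12, of which 5 were controls. Its levels ran from -8.82 to -2.27, and the highest, -2.27, was in replicate 3 of the 4-month controls. The 13 arrays high for Cnfn ranged from -6.75 to -2.27 for Dsg3 and the other 36 from -8.82 to -3.94, and 33 of these others, without the 3 arrays that stand apart, from -8.82 to -6.54.

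Calml3 encodes a calmodulin-like protein of epithelial cells, and Bnipl a protein that interacts with regulators of apoptosis. Calml3 was well above background on all 49 arrays and was bright on 1, the dim array of the young rats after 3 months, at 3.26. Its other levels ran from -2.59 to 1.70. The lowest, -2.59, was in replicate 2 of the 7-month controls, 1 of the 2 arrays low for Tg. Bnipl was bright on 2 arrays, at 0.83 in replicate 3 of the 4-month controls and at 0.81 in replicate 4 of the adult rats after 3 months. Its 2 lowest levels were -8.14 and -6.77, on the 2 arrays low for Tg, while its median over the 49 arrays was -1.21. On the 13 arrays high for Cnfn, Calml3 ranged from -0.20 to 1.70 and Bnipl from -1.45 to 0.83, and both ranges overlapped those of the other 36 arrays. Cnfn itself set the split into 13 and 36 arrays. Of the other 7 genes, 3, namely Sprr3, Lypd3 and Sbsn, did not overlap between them, with or without the 3 arrays that stand apart, beside 0.393% of all tested probes with those arrays and 0.85% without. As the split came from a gene of the same set, these counts are a description.

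**Figure D2:**
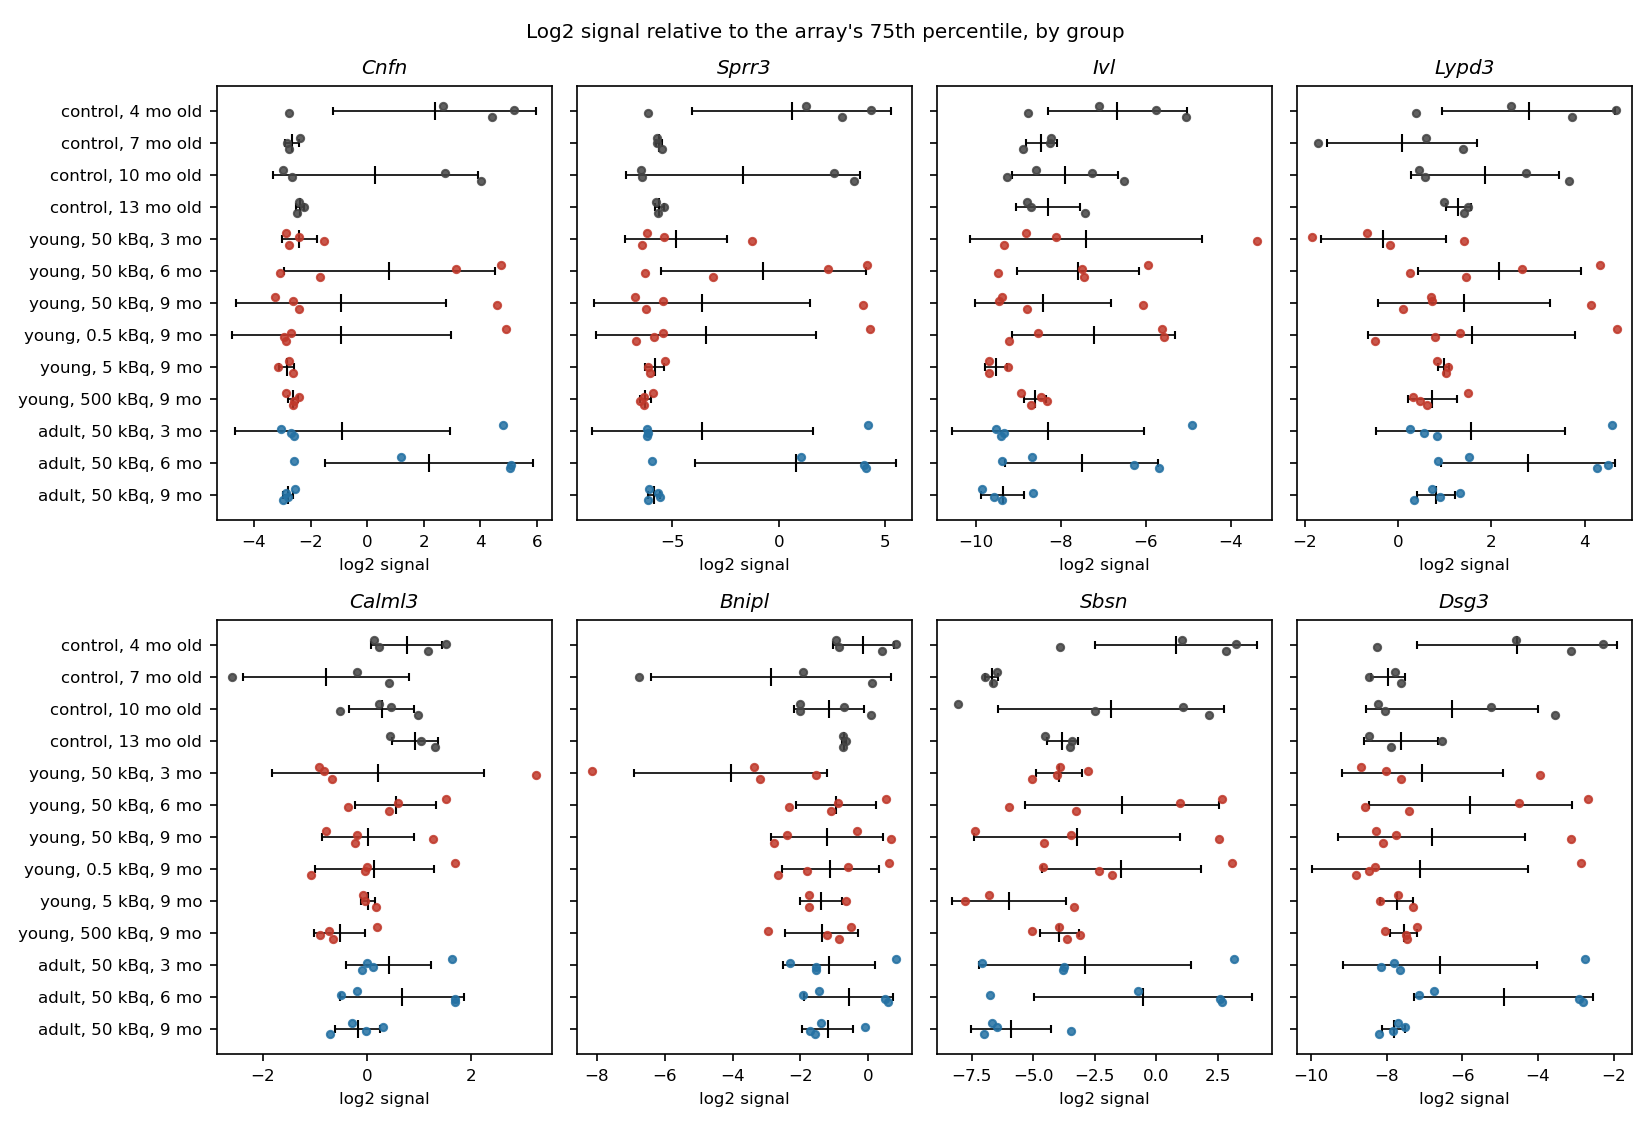
Level of each of the 8 genes, 1 panel a gene (horizontal axis, log2 signal minus the 75th percentile of the array), in each of the 13 groups (vertical axis). Points are arrays (grey for untreated, red for young and blue for adult exposed rats), ticks are group means and bars are SD. In the panels of Cnfn, Sprr3, Sbsn and Dsg3 the points of several groups fall far apart and the SD bars are long.

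The spread inside groups was large for these genes. Grouped by treatment and age, the means of Cnfn ran from 2.39 ± 3.60 (SD, n = 4) in the 4-month controls, through 2.19 ± 3.66 (SD, n = 4) in the adult rats after 6 months, to -2.85 ± 0.26 (SD, n = 3) at 5 kBq. The highest means of Sprr3 were 0.79 ± 4.73 (SD, n = 4) in the adult rats after 6 months and 0.60 ± 4.67 (SD, n = 4) in the 4-month controls, and the lowest was -6.28 ± 0.25 (SD, n = 4) at 500 kBq. Neighbours in these orders did not differ beyond their spread. The SD within groups was 2.84 for Cnfn, 3.90 for Sprr3 and 3.18 for Sbsn, 2.07 for Dsg3, and 1.56, 1.55 and 1.58 for Ivl, Lypd3 and Bnipl, with a median of 1.82 over the 8 genes and 0.53 over all 25171 tested probes. Calml3 had the smallest of the 8, 1.00. The groups accounted for 22.2 to 37.4% of the variance of the 8 genes, with a median of 32.8%, and for a median of 33.6% of the variance of all tested probes.

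Over the 49 arrays the 28 pairs of the 8 genes had a Pearson r of 0.40 to 0.99, with a median of 0.77. The 2 lowest values, 0.40 and 0.46, were those of Bnipl with Ivl and with Sbsn. Without the 3 arrays that stand apart the lowest was 0.60 and the median 0.84. On the 37 arrays that were bright for under 4 genes, the pairs ranged from -0.07 to 0.90 with a median of 0.35, and Cnfn with Sprr3 gave 0.90. These are descriptions over arrays that share their scaling.

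Each exposed group was compared with the untreated controls of its own age by limma, in one fit of all 49 arrays over 25171 probes, and a gene counted as called where its fold change was over 1.5 and its p, adjusted by Benjamini and Hochberg over all probes, under 0.01. None of the 8 genes was called in any of the 9 comparisons. At an unadjusted p under 0.05, 5 of the 8 passed in the young rats after 3 months, where 38% of all tested probes did, and 1 in the young rats after 6 months, where 6.57% did. None of the 8 passed in the other comparisons. There the share of all tested probes was 1.42% in the young rats 9 months after 50 kBq, 0.934, 1.83 and 1.62% after 0.5, 5 and 500 kBq, and 4.75, 0.795 and 21.9% in the adult rats after 3, 6 and 9 months. Of all tested probes, 0.0119% were called in the young rats 3 and 9 months after 50 kBq and at 5 kBq, 0.548% in the adult rats after 9 months, and 0% in the other 5 comparisons. With groups of 3 and 4 arrays, the smallest two-sided exact permutation p that can be reached is 0.0286. The labels give replicate numbers and name no rat. The p-values thus measure the spread between arrays, each taken as 1 rat. For limma this spread is pooled over the 13 groups, so it can differ from that of the 2 groups compared.

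In the young rats examined 3 months after 50 kBq the measured signals of the 8 genes were all lower on average than in the 4-month controls. The median log2 fold change was -3.51 against 0.30 over all tested probes. For Ivl no exposed array was well above background, so its direction is not established. Bnipl was at -3.18, -1.56, -8.14 and -3.36 in the exposed rats and at 0.42, -0.88, 0.83 and -0.96 in the controls. Every exposed array was below every control array for Bnipl, which was 1 of the 8 genes, and the only one, whose groups did not overlap, beside 5.42% of all tested probes. Its log2 fold change was -3.91 ± 1.09 (SE), with a limma adjusted p of 0.0235 and a two-sided exact permutation p of 0.0286, the smallest these groups allow. Without the 3 arrays that stand apart it was -3.12 with a limma adjusted p of 0.474, and over all alternatives the adjusted p ranged from 0.00736 to 0.566. Lypd3 had a log2 fold change of -3.12 ± 1.07 (SE) and a limma adjusted p of 0.0411, which became 0.474 without the 3 arrays, and its groups overlapped through the lowest control array, 0.39, and the dim exposed array, 1.42. Cnfn, Sprr3 and Sbsn had differences of -4.78, -5.43 and -4.74 with limma adjusted p of 0.0742, 0.131 and 0.108. In each of these 3 genes, 3 of the 4 control arrays were high and the fourth lay among the exposed arrays. Dsg3 was well above background on no exposed array and on 3 control arrays. Its mean level in the exposed rats was at least 1.82-fold below the measured mean of the controls, with a limma adjusted p of 0.187. The fourth control array, part of that mean, was at -8.25, not well above background and among the exposed arrays. Within the 2 scan dates that held both groups, the median of the 8 genes was -3.05 and -2.64. In the same comparison the 10 cartilage genes had a median of 2.29, and 2.06 without the 3 arrays, with 8 of 10 at an unadjusted p under 0.05 by limma beside the 38% of all tested probes. The 3 parathyroid genes had a median of -4.08, and -2.62 without the 3 arrays. Their part in the values of the squamous genes was not tested.

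At 6 months after 50 kBq the direction was the opposite in young rats. The measured signals of the 8 genes were all higher on average than in the 7-month controls. The median log2 fold change was 2.13 against -0.11 over all tested probes. For Ivl no control array was well above background, so its direction is not established. Sbsn was at -3.25, -5.98, 0.97 and 2.67 in the exposed rats and at -6.64, -6.96 and -6.46 in the controls. Its groups did not overlap, which held for 1 of the 8 genes and for 7.84% of all tested probes, and its log2 fold change of 5.29 ± 2.36 (SE) had a limma adjusted p of 0.724. Cnfn and Sprr3 differed by 3.43 ± 2.11 (SE) and 4.89 ± 2.90 (SE), and in each 2 exposed arrays were high while the other 2, at -1.67 and -3.06 for Cnfn and at -3.10 and -6.30 for Sprr3, were not. The measured mean of Dsg3 was at least 1.76-fold higher in the exposed rats, with a limma adjusted p of 0.857. There 2 of 4 exposed arrays were well above background and no control array was. The others of the exposed group were at -7.40 and -8.56, beside -8.47 to -7.62 in the controls. Without replicate 2 of the 7-month controls, 1 of the 2 arrays low for Tg, the median of the 8 genes was 1.55 and the difference of Bnipl went from 1.90 to -0.05. The 12 thyrocyte genes had a median of 2.32 in this comparison, with 12 of 12 above 0 and 5 at an unadjusted p under 0.05 by limma, and of -0.41 without that array. Their part in the values of the squamous genes was not tested. The 2 groups shared no scan date, so scan date and group cannot be told apart.

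In the young rats 9 months after injection the medians of the 8 genes were -0.22 for the 0.5 kBq group, -1.54 for 5 kBq, -0.53 for 50 kBq and -1.20 for 500 kBq, against -0.00, -0.02, 0.04 and 0.06 over all tested probes. The groups overlapped for all 8 genes in each of these comparisons, while they did not for 1.06, 15.4, 4 and 2.91% of all tested probes, in the same order of activities. For Cnfn the differences were -1.19 ± 1.95, -3.14 ± 2.11, -1.21 ± 1.95 and -2.91 ± 1.95 (SE), and for Sprr3 they were -1.74 ± 2.68, -4.15 ± 2.90, -1.92 ± 2.68 and -4.59 ± 2.68 (SE). The order of these differences was that of how many of the arrays were high, 1 of 4 at 0.5 and 50 kBq and none at 5 and 500 kBq, against 2 of 4 in the controls. All 8 adjusted p values at each activity were 1.00 by limma. The median at 0.5 kBq was 0.20 without replicate 1 of the controls and 0.33 without replicate 1 of the exposed rats, so its sign rested on single arrays. Within single scan dates that held both groups, the median was -0.82 and 1.82 for the 0.5 kBq group, -1.34 and -2.43 for the 5 kBq group, -1.38 and -0.40 for the 50 kBq group, and -2.25 for the 500 kBq group, with as few as 1 array a side. Of the 4 arrays at 500 kBq, 3 were scanned on a date that held no 10-month control. At 500 kBq, Dsg3 was well above background on no exposed array and on 2 of 4 control arrays, and was at least 1.13-fold lower. The other 2 controls were at -8.04 and -8.23, against -8.04 to -7.20 in the exposed rats.

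A slope on log10 of the activity was fitted over the 15 exposed arrays at 9 months. The slopes of the 8 genes ran from -0.67 for Sprr3 to -0.05 for Dsg3 in log2 units per unit of log10 activity, with a median of -0.28 against 0.02 over the 23069 probes tested. None of the 8 was called and 0% of all probes were, at a smallest limma adjusted p of 1.00 for the 8 genes. No slope of the 8 genes had an unadjusted p under 0.05, against 2.59% of all probes, and without replicate 4 at 0.5 kBq, the bright array of that group, their median slope was 0.09. Activity and scan date were partly tied. The first date held 3 of the 4 arrays at 0.5 kBq, and the second held 3 of the 4 at 500 kBq.

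In the adult rats the median of the 8 genes was 1.59 after 3 months, 1.10 after 6 months and -0.48 after 9 months, against -0.11, 0.06 and -0.14 over all tested probes. After 3 months the value rested on replicate 4, at 4.81 for Cnfn, 4.18 for Sprr3, 3.14 for Sbsn and 4.58 for Lypd3. Without it the median was 0.28. Without replicate 2 of the 7-month controls, low for Tg, the median was 0.84 and the difference of Bnipl went from 1.71 to -0.25. The 12 thyrocyte genes had a median of 2.22 with that control array and of -0.42 without it, and their part in the values of the squamous genes was not tested. The groups overlapped for all 8 genes, against 7.67% of all tested probes that did not overlap. After 6 months Cnfn was high on 3 of 4 exposed arrays and on 2 of 4 control arrays, with a difference of 1.90 ± 1.95 (SE), and the groups again overlapped for all 8 genes, against 4.08% of all tested probes that did not. Replicates 1 and 2 of this group were among the closest pairs of the study, and with their average in place of both the median was 0.30. After 9 months no array was high in the exposed rats or in the 13-month controls. Here Cnfn, at -2.96, -2.80, -2.88 and -2.53 against -2.48, -2.22 and -2.42, and Calml3, at -0.70, -0.01, 0.32 and -0.29 against 1.30, 1.05 and 0.44, did not overlap. These were 2 of the 8 genes against 26.1% of all tested probes. The differences were -0.42 ± 2.11 (SE) and -1.10 ± 0.75 (SE), with limma adjusted p of 0.940 and 0.415 and a two-sided exact permutation p of 0.0571 for each. The SE and limma p rest on the spread pooled over all groups, which was 2.84 for Cnfn. Its SD here was 0.19 in the exposed rats and 0.14 in the controls. Within scan dates that held both groups the median was -0.24 after 3 months, 3.25 and 0.25 after 6 months and -0.41 after 9 months, so its sign after 3 months was not kept on the 1 date that could be read. With slide and with scan date as a block the median after 9 months was -1.45 and -1.21.

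**Figure D3:**
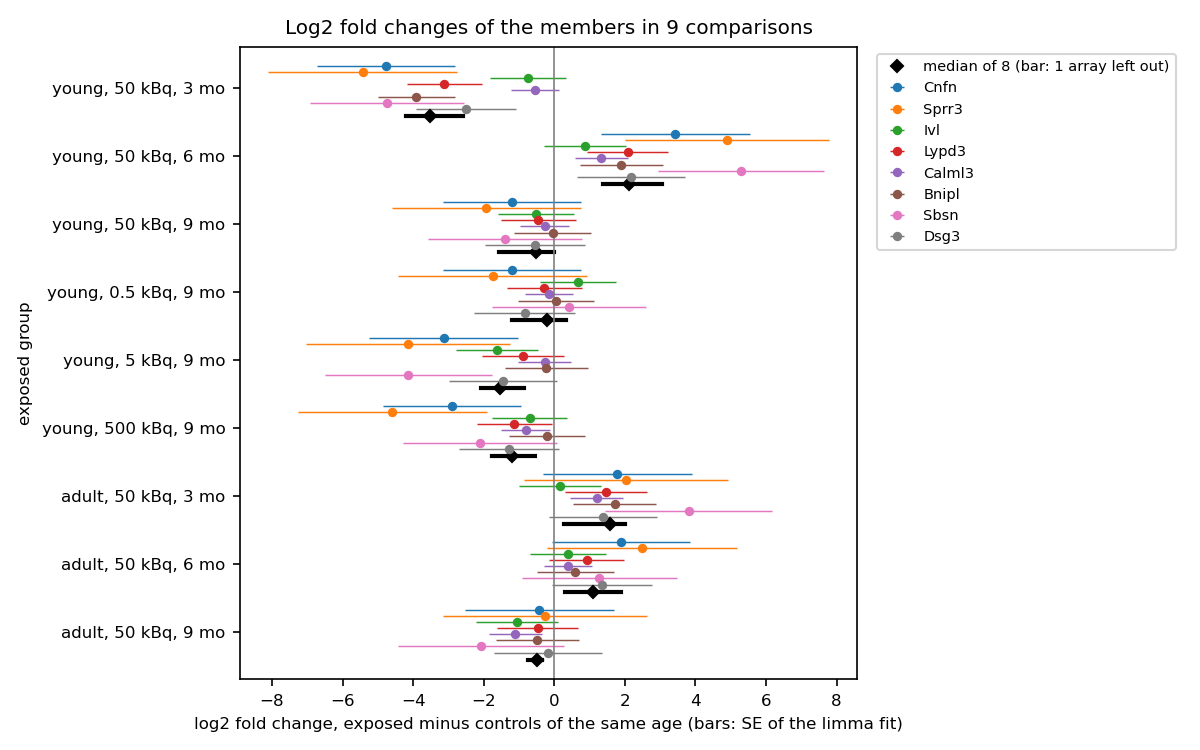
Log2 fold change (horizontal axis) of each of the 8 genes (points, with SE bars) in each of the 9 exposed groups (vertical axis) against untreated rats of the same age. The diamond is the median of the 8 genes and the thick black bar through it the range of that median with each array left out in turn. The median runs from -3.51 in the young rats after 3 months to 2.13 after 6 months, and most SE bars cross 0.

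All 35 exposed arrays were set against all 14 controls, with each age weighted equally and the exposed groups of an age sharing its weight. The young rats after 3 months and the adult rats after 9 months were alone at their age and so weighed most. The median was -0.59 for the 8 genes, -0.87 without the 3 arrays that stand apart, and 0.03 for all tested probes. None of the 8 was called, as with 0% of all probes. At an unadjusted p under 0.05 none of the 8 passed, against 12.8% of all tested probes. The interaction contrasts tested whether the 50 kBq effect in the young rats at 9 months differed from that at 3 months and from that in adults at 9 months. They had medians of 3.01 and 0.23 for the 8 genes, and none was called in either, as with 0% of all probes. At an unadjusted p under 0.05, 1 of the 8 passed in the contrast with 3 months, beside 17.4% of all tested probes, and 0 in that with adults, beside 13.4%. The differences at 3 and 6 months share no control rats, and the test of one against the other was not made.

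The untreated rats of different ages were compared in the same fit. Against the 4-month controls, the 8 genes had a median of -3.06 at 7 months, -1.48 at 10 months and -2.36 at 13 months, and none was called by limma. At an unadjusted p under 0.05, 7, 0 and 2 of the 8 passed at these ages, beside 7.65, 3.65 and 34.1% of all tested probes. Without replicate 2 of the 7-month controls the median at 7 months was -2.52 and the difference of Bnipl went from -2.71 to -0.75. Markers of other tissues differed between the ages too. The 12 muscle genes had a median of -2.79 at 13 months, with 10 at an unadjusted p under 0.05 and 2 called lower by limma. The 10 cartilage genes had a median of -1.99 at 10 months, with 5 at an unadjusted p under 0.05. The 12 thyrocyte genes had a median of -1.59 at 7 months, and of 1.17 without that array. The part of these tissues in the values of the squamous genes was not tested. Of all tested probes, 0.00397% were called at 7 months, 0.0119% at 10 months and 5.2% at 13 months. Sbsn did not overlap at 7 months, with 2.82, -3.92, 3.23 and 1.04 against -6.64, -6.96 and -6.46, a log2 difference of -7.48 ± 2.36 (SE) and a limma adjusted p of 0.370. It was 1 of 8 genes that did not overlap at 7 months, against 6.16% of all tested probes, and 0 of 8 did not at 10 and 13 months, against 3.12% and 34.3%. Dsg3 was at least 4.11-fold and 4.47-fold higher in the 4-month controls than in those of 7 and 13 months, with limma adjusted p of 0.584 and 0.151. At 4 months it was well above background on 3 of the 4 control arrays, and the fourth, at -8.25, lay among the older ones. The bound at 7 months includes replicate 2 of those controls, low for Tg. The 4-month controls held 3 arrays high for Cnfn and those of 7 and 13 months held none, and the same 4-month arrays were the controls of the young rats after 3 months.

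Other genes of the squamous programme were read from 5 lists. Of their 47 tested genes, 30 had a Pearson r over 0.8 with the mean of the 8 genes, 7 of 9 precursors, 11 of 14 enzymes, 7 of 8 keratins and Tp63, 4 of 10 transcription factors and 1 of 6 desmosome genes. None of their probes was called in any comparison of an exposed group with its controls. At an unadjusted p under 0.05 by limma in the young rats after 3 months, 6 of 9 tested precursors, 4 of 14 enzymes, 4 of 6 desmosome genes, 5 of 10 transcription factors and 6 of 8 keratins and Tp63 passed, beside 38% of all tested probes. Without the 3 arrays that stand apart, the median log2 fold change there went from -1.77 to -0.67 for the desmosome genes. For the transcription factors it went from -1.66 to -1.29. The medians of the precursors, the enzymes, and the keratins and Tp63 went from -3.34, -3.32 and -4.54 to -3.88, -4.06 and -5.69. For other precursors of the envelope, 9 of 32 genes had a probe, and the mean of the 9 had a Pearson r of 0.99 with the mean of the 8 genes over the 49 arrays. Its median log2 fold change was -3.34 in the young rats after 3 months and 2.67 after 6 months. The 3 named by mean signal were Cst6, an inhibitor of cysteine proteases, Evpl, envoplakin, and Ppl, periplakin, with an r of 0.84, 0.75 and 0.86 each. For the enzymes of crosslinking, proteolysis and lipid synthesis, 14 of 19 genes had a probe and the r of their mean was 0.98. Tgm3, a transglutaminase that crosslinks the envelope, ran from -0.21 to 3.26 on the 13 arrays high for Cnfn and from -5.80 to -1.18 on the other 36. Spink5, an inhibitor of the skin's serine proteases, had an r of 0.91, whereas the lipoxygenase Alox12e had 0.10.

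Of 14 squamous transcription factors 10 had a probe, and their mean had an r of 0.95. Klf4 and Pitx1 had an r of 0.74 and 0.69 and Grhl2 of 0.20. Of 14 other desmosome genes 7 had a probe, and their mean had the lowest r of the squamous lists, 0.54, and 0.67 without the 3 arrays that stand apart. Plakoglobin, Jup, was at 0.84 to 2.12 on the 13 arrays and at -0.01 to 0.92 on the others, while plakophilin 2, Pkp2, at 0.26 to 0.86 and 0.34 to 1.80, was not higher on the 13 arrays. Perp, a membrane protein of desmosomes, had an r of 0.67. Of 12 squamous keratins and Tp63, 9 had a probe, and the mean of this list lay between -1.36 and 1.81 on the 13 arrays and between -6.58 and -1.80 on the other 36. Krt4 and Krt15 had an r of 0.96 and 0.88 with the 8 genes, and Tp63, a regulator of basal squamous cells, of -0.12.

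Markers of other cell types were read in the same way. The mean of 12 thyrocyte genes had an r of 0.10 with the mean of the 8 genes, and -0.28 without the 3 arrays that stand apart. It ranged from -0.31 to 1.72 on the 13 arrays high for Cnfn and from -0.15 to 2.11 on the 33 others without those 3 arrays. The lists of 5 C cell, 3 parathyroid, 12 skeletal muscle and 13 airway genes had an r of 0.03, 0.15, 0.09 and 0.05, of -0.24, 0.00, 0.13 and 0.10 without the 3 arrays, and those of 12 cartilage and 5 adipocyte genes of -0.17 and -0.16. Of the airway list 8 genes had a probe, of the cartilage list 10, of the adipocyte list 4 and of the other 4 lists all. Calcitonin, Calca, the hormone of C cells, and parathyroid hormone, Pth, were between 0.89 and 7.74 and between 5.50 and 6.84 on the 13 arrays. Muscle genes were high on these arrays too, with a list mean of 5.79 to 6.87, and on the other 36 of -2.85 to 7.83. The part of any other tissue in the squamous signal was not tested.

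**Figure D4:**
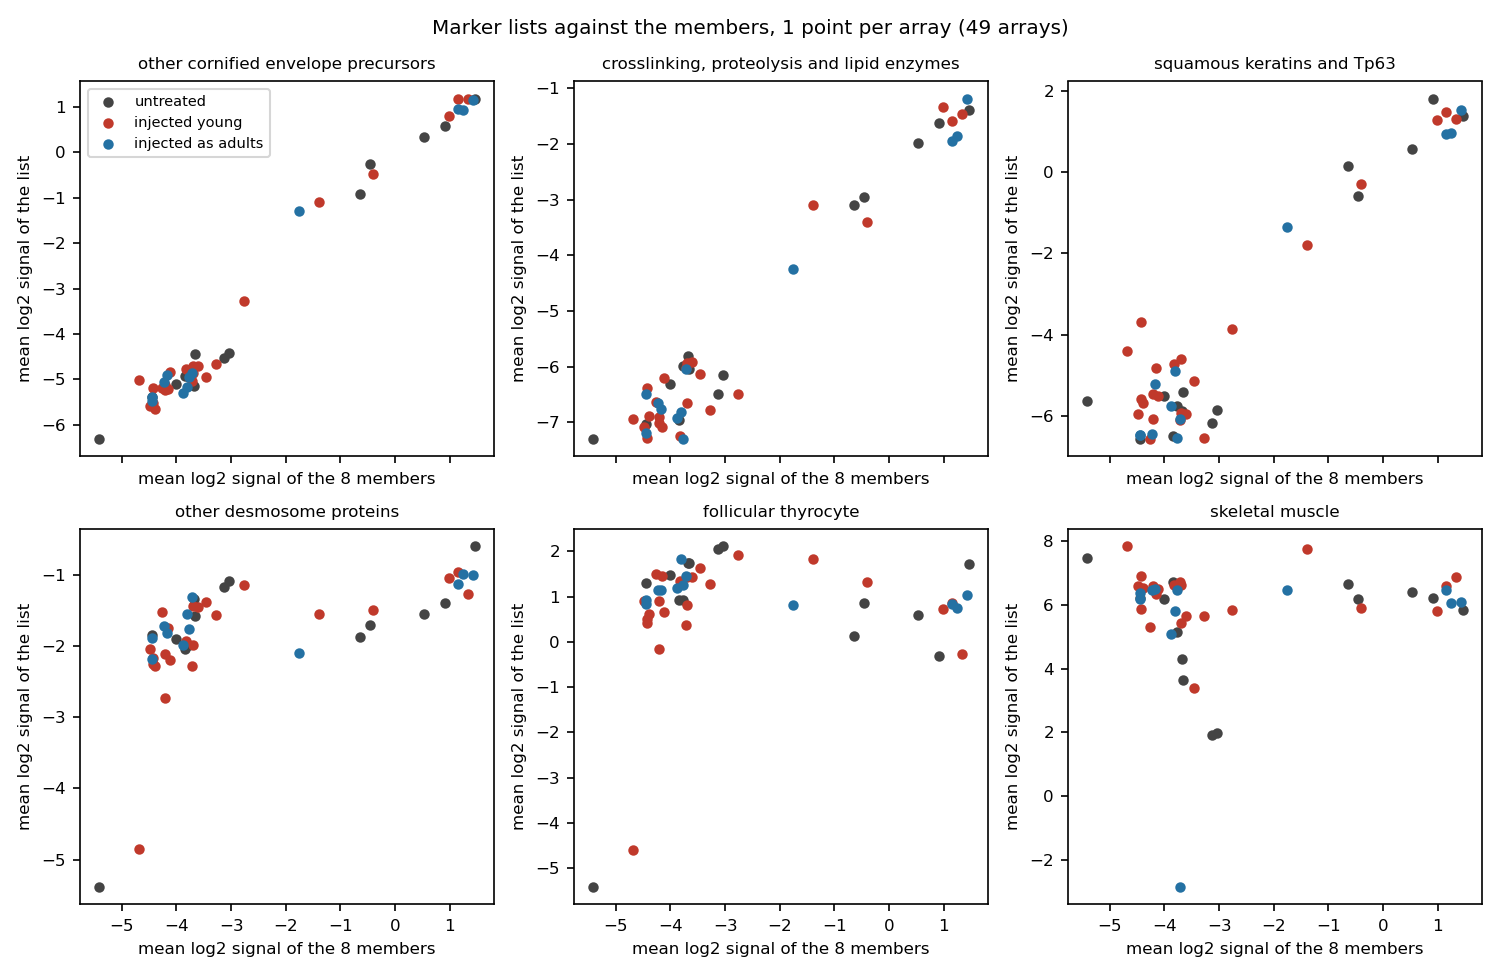
Mean level of 6 gene lists on each array (vertical axis, log2) against the mean level of the 8 genes (horizontal axis, log2), with 1 point per array and colours for untreated, young and adult rats. The squamous lists have an r of 0.54 to 0.99 with the 8 genes and the thyrocyte list of 0.10.

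Among 13168 other genes, the 10 whose level was most like the mean of the 8 over the 49 arrays were Sfnl1, Serpinb5, Ada, Klk11, Cyp2s1, Cyp2t1, Trex2, Klk13, Il36b and Degs2, with a Pearson r of 0.98 for Sfnl1 and 0.97 for the other 9. Serpinb5 encodes maspin, a serpin of epithelial cells, Ada encodes adenosine deaminase, Klk11 and Klk13 encode kallikrein proteases, and Il36b an epithelial cytokine. Klk13 was 1 of the enzymes listed above. Over the 37 arrays bright for under 4 of the 8 genes, the same 10 had an r of 0.68 to 0.82, and of 0.54 to 0.78 without the 3 arrays that stand apart. In all, 145 genes had an r over 0.9 and 277 over 0.8, and the median over all genes was -0.03.

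Several of the 10 squamous genes lie close to each other. In the RefSeq annotation of GRCr8, 4 lie on chromosome 1, 4 on chromosome 2, and Calml3 and Dsg3 on chromosomes 17 and 18. Sprr3 and Sprr1a are neighbours, with 1 gene between Sprr1a and Ivl and 166 genes between Ivl and Bnipl. Sbsn and Krtdap have 2 genes between them. One of these, Dmkn, which encodes dermokine of the skin, had an r of 0.94 with the 8 genes, and the other, Gapdhs, of -0.01. Smcp, next to Ivl, had -0.06, Tmem147, next to Sbsn, had -0.27, and C2h1orf56, next to Bnipl, had 0.71. These 5 neighbours were named after their values were seen.

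The promoters are shown because most of the squamous genes were high on the same arrays. Bnipl followed the others less closely, with a Pearson r of 0.55 with Cnfn and 0.46 with Sbsn. The part of the motifs in these values was not tested. The promoters of Sbsn, Bnipl and Cnfn were taken as 1 with the AP-1 motif, 1 with other motifs and 1 with none. They are the 250 bases before the start in RefSeq (GRCr8), 5′ to 3′ on the strand of the gene, with motifs in capitals. Windows were held for 9 of the 10 genes, all but Sprr3, and Sbsn had 2, of which the second is given. The places are chr1:95128731-95128980 on the plus strand for Sbsn, chr2:185517583-185517832 on the minus strand for Bnipl and chr1:90081557-90081806 on the minus strand for Cnfn.
Sbsn: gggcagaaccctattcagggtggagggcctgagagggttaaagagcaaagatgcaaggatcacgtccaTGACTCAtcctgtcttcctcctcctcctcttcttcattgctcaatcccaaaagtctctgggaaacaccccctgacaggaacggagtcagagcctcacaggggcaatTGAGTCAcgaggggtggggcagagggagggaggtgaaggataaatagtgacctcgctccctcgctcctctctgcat
Bnipl: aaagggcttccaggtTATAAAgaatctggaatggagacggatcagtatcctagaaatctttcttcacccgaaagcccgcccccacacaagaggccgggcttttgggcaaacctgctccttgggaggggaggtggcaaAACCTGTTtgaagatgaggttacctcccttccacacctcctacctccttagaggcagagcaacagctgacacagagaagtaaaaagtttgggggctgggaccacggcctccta
Cnfn: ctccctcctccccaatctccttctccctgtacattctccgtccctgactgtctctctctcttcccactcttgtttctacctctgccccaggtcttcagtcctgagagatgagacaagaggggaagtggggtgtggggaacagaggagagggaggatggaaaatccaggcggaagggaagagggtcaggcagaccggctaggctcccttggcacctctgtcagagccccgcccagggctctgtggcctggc
The capitals in Sbsn are 2 matches of the AP-1 motif TGANTCA, 182 and 76 bases before the start. Those in Bnipl are the TATA box letters TATAAA at 235 bases and the Grainyhead-like motif AACCNGTT at 113 bases before the start. Both strands were searched, and no match of 1 motif overlapped another. In Sprr1a, AP-1 matches lay 147 and 117 bases and a TATA box 46 bases before the start, and in Krtdap an AP-1 match lay 81 bases and a TATA box 30 bases before it. Cnfn, Ivl, Lypd3, Calml3, Dsg3 and the first window of Sbsn held none of these letters, which says nothing more than that. Of 33469 rat promoters of the same length, 6.34% held the AP-1 motif, 1.76% the Grainyhead-like motif and 12.9% the TATA box.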

How the data were processed

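RNA from the thyroid of single rats was hybridised to 49 one-colour arrays, and groups were taken from the sample labels. The authors deposited 1 Feature Extraction 10.7.3.1 file per array. The processed signal the authors deposited is an intensity from which the scanner software had subtracted a background for every spot, with no scaling between arrays. The deposited files also hold marks of 0 or 1, in other units, for spots that are well above background, saturated or outliers, and no probe of these genes was saturated. A deposited list of fold changes with 9 columns was not used. The submitters' notes name Partek and the study's methods Nexus Expression, while the normalization and test behind them are not given.

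Control spots and outliers were left out, log2 signals were set relative to the 75th percentile of their array, and spots of a probe were averaged. Probes were named through RefSeq accessions, 17998 of 30367 with 1 symbol. Probes well above background on at least 3 arrays entered a fit by limma 3.58.1 (R 4.3.3), with 1 mean for each of 13 groups. For single genes an exact two-sided permutation test was added, which cannot go under 0.0286. The fit was tested on the measured arrays with group differences removed and known changes added to some probes. The scripts used jsonlite 2.0.0, data.table version 1.17.8, statmod 1.5.0, Python 3.11.15, pandas 2.3.3, numpy 2.4.6 and matplotlib 3.10.9. Where a group had no array well above background for a gene, only a bound of the fold of that gene is stated. For the bound, arrays of that group were raised to the lowest signal marked as well above background on the same array. The other group kept its measured signals, also those not well above background, so the bound holds for its measured mean only. Medians over genes, correlations, slopes and tests used the measured signals, also those not well above background.

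The genes and the 12 lists were chosen with earlier results of these data known. Named genes are the 10 members, at most 3 genes of the highest mean signal from each list, and the 10 genes most like the mean of the members. Other settings tried were quantile normalization, normexp background correction, other filters on dim probes, array weights, slide, scan date and replicate blocks, smaller fits and leaving out arrays. The number of arrays limits the precision of every value.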

Additional observations from a re-analysis of the deposited data

Results flagged for a closer look

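In groups of 4 arrays the highest or lowest array was compared with the spread of the rest by Dixon's criterion, which marks about 1 in 20 groups by chance. Of 80 pairs of gene and group, 15 were marked, all by a high array, and these came from 5 arrays. Most of the genes were high on the same arrays, so the 80 pairs are not independent. Their count thus cannot be read against that rate, and the share of all tested probes marked was not counted. Replicate 2 of the young rats 9 months after 50 kBq stood apart at 4.61 for Cnfn, 3.95 for Sprr3, 4.14 for Lypd3 and -3.12 for Dsg3. Replicate 4 of the young rats given 0.5 kBq stood apart at 4.90 for Cnfn, 4.27 for Sprr3 and -2.85 for Dsg3. Replicate 4 of the adult rats after 3 months did so at 4.81 for Cnfn, 4.18 for Sprr3, -4.92 for Ivl, 4.58 for Lypd3, 1.63 for Calml3 and -2.74 for Dsg3. The other 2 were Calml3 at 3.26 on the dim array of the young rats after 3 months, and Sbsn at -3.48 in replicate 2 of the adult rats after 9 months.

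In 6 of 72 pairs of exposed groups compared gene by gene, every array of one group lay on the opposite side of its control mean from every array of the other. Relative to the control mean, Lypd3 ran from -4.64 to -1.39 log2 units in the young rats after 3 months, and lay above 0 in the young rats after 6 months and in the adult rats after 3 months. Bnipl did the same, with a lowest value of -7.99 in the young rats after 3 months. Sbsn was below the controls in the young rats after 3 months (lowest -5.85) and above them after 6 months. Calml3 was at least 0.69 above the controls in the adult rats after 3 months and below them after 9 months. These differences were not tested. The share of all tested probes that did the same was not counted, so the 6 pairs are a description. All 6 used the 7-month controls, 1 array of which was low for Tg, and 5 also the 4-month controls, 3 of 4 of which were high for Cnfn. Without the 3 arrays that stand apart 5 of the 6 were lost, and only that of Sbsn was kept. Calml3 then reached down to -0.21 in the adult rats after 3 months, Lypd3 to -0.74 in the young rats after 6 months and -0.73 in the adult rats after 3 months, and Bnipl to -1.44 and -1.41.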

How the results depend on the processing

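The count of genes called was 0 in all 15 contrasts under quantile normalization, normexp background correction on the median spot signals, other filters on dim probes, without the 3 arrays that stand apart, with the closest pairs averaged, and with slide, scan date and replicate blocks. It was also 0 in the 12 contrasts that could be fitted on their 2 groups alone and in the 4 of the 10-month-old young rats and controls. It moved under 3 kinds of alternative. In the young rats after 3 months the count ran from 0 to 1 with each array left out, since Bnipl was called without replicate 1 (adjusted p 0.00736) or replicate 4 (adjusted p 0.00892) of the exposed group, where 16.9 and 14.9% of all tested probes were called, and 2 genes, Bnipl and Lypd3, passed at an adjusted p under 0.05, as did 17% of all tested probes. With limma array weights, 1 gene was called in the young rats after 6 months (Sbsn), 1 in the adult rats after 3 months (Bnipl, whose log2 fold change turned from 1.71 to -1.46), 1 in the adult rats after 9 months (Calml3), 2 with all exposed rats together (Calml3 and Bnipl) and 1 between controls of 4 and 7 months (Sbsn), where 28.8, 30.1, 33, 13.4 and 28.3% of all tested probes were called. The estimate of these weights stopped before convergence. The cause of these moves was not tested. With each array left out, the median of the 8 genes ran from -4.20 to -2.58 in the young rats after 3 months, from 1.39 to 3.06 after 6 months and from -1.56 to -0.00 after 9 months, from -1.20 to 0.33 at 0.5 kBq, from -2.06 to -0.86 at 5 kBq and from -1.77 to -0.56 at 500 kBq (both highest without replicate 1 of the controls), and from 0.28 to 2.00, 0.29 to 1.89 and -0.74 to -0.36 in the adult rats after 3, 6 and 9 months. The medians between control ages ran from -4.08 to -2.51 at 7 months, from -2.44 (without replicate 2 of the 4-month controls) to -0.72 (without replicate 4 of the 10-month controls) at 10 months and from -3.32 to -1.82 at 13 months. The interaction with 3 months ran from 1.21, without replicate 2 of the young rats at 9 months, to 3.79. The interaction with adults ran from -1.06 to 0.74, turning negative without replicate 2 of the young rats. The deviations of same-numbered arrays correlated at -0.52 to 0.50 over 32 pairs, 10 of them over 0.1, and all 3 pairs of a comparison were over 0.1 (0.14 to 0.33) only in the young rats after 6 months. With a replicate block the medians after 6 months in young and 3 months in adult rats were 1.97 and 1.40, with no call changed. Normexp on the mean spot signal was not run. Normexp on the median signal, the fits without the 3 arrays that stand apart, the averaged closest pairs, the lists and the opposite sides of control means without the 3 arrays, and the alternatives for ages, all exposed rats together, interactions and left-out arrays in the slope were chosen after seeing the data.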
